A study of Mus musculus with 24 samples.

Results

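The sites described here are protein-protected sites (PPSs) that were read out with a single-strand-specific ribonuclease (ssRNase) in murine erythroleukemia (MEL) cells, before induction (day 0) and 2 days after induction of erythroid differentiation (day 2). A PPS is a stretch of RNA that bound protein shields from digestion. The sites were chosen as all PPSs of the day 0 and day 2 lists with at least 1 ssRNase call in their name field, and PPSs of 20 to 40 nt, the size range of ribosome footprints, were left out. This gave 184227 PPSs, 84983 at day 0 and 99244 at day 2, of 308264 PPSs on these days and 460777 PPSs in the whole series.

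The series holds 24 libraries in 12 groups, from 3 days, 2 RNases, 2 kinds of library and 2 replicates, of which 8 libraries are used here. MEL cells are a mouse line arrested at the proerythroblast stage, and 2% DMSO in the culture medium makes them differentiate. The day 0 groups were undifferentiated cells without DMSO, the day 2 groups were collected after 2 days on DMSO, and all cells were crosslinked with formaldehyde. In footprinting libraries the homogenate was digested with RNaseONE while proteins were still bound, and in structure-only libraries the proteins were removed first with SDS and proteinase K. A call set is the set of regions enriched in the footprinting over the structure-only library of 1 replicate, so that each day has 2 ssRNase call sets. The cells are a single transformed line and no untreated culture of day 2 was used here, so that DMSO and time in culture cannot be told apart. The lists hold no transcript levels. A gene with more RNA and a gene with more protein on each RNA molecule cannot be told apart.

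RNA-binding proteins coat an RNA from its transcription to its decay: on the unspliced transcript they mark introns and splice sites, and on the mRNA they govern export, translation and stability. A single-strand-specific RNase cuts the loops and open stretches that proteins leave bare, so an ssRNase site marks protein on RNA that would otherwise be open to cleavage. In terminal erythroid differentiation, cells commit their mRNA pool to globin, heme synthesis, iron import and the spectrin-based membrane skeleton, shut down progenitor regulators, and condense the nucleus.

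After the length filter the call sets held 56044 and 50995 PPSs for day 0 replicates 1 and 2, and 51965 and 73952 for day 2 replicates 1 and 2. Between 36.1% and 51.3% of the PPSs of a call set also had a call of the other replicate, and 20.1% to 27.2% also had a call made with the double-strand-specific RNase V1 (dsRNase). Such a merged PPS carries the joint coordinates of all its calls, so that the 2 replicates of a day are not fully independent in coordinates and coverage. The day 0 replicate 2 set stood apart by strand, with 66.9% of its PPSs on the plus strand against 50.3% to 52.0% in the other sets. The day 2 replicate 1 set stood apart by length, with 29.4% of its PPSs in the excluded class of 20 to 40 nt against 9.55% to 17.5%. Of the defining erythroid markers, Epor, Tfrc, Klf1 and Hbb-bs had exonic ssRNase sites in all 4 sets. Gata1, Hba-a1 and Alas2 had none in 1 of the day 0 sets, and Slc4a1 had none in any set. Of 22 markers of other blood and stromal lineages, 4 had any exonic site, led by the megakaryocyte integrin Itga2b with coverages between 23.5% and 31.8% and no call.

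Sites found in both replicates of 1 day and overlapping no PPS of either RNase on the other day show what came and went. The following sites, printed 5′ to 3′ as RNA sense in DNA letters from the RefSeq copy of GRCm38, lie in genes whose site numbers changed most or that are central to the lineage, and were picked for these genes after their values were seen. The first 3 were present in both day 2 replicates only, the last 3 in both day 0 replicates only, and capitals mark runs of 3 or more G.
Sptb, intron 1 of 35, chr12:76706141-76706231, minus strand, day 2: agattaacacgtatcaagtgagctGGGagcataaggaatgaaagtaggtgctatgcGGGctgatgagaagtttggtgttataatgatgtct
Prkar2b, intron 2 of 10, chr12:32015098-32015288, minus strand, day 2: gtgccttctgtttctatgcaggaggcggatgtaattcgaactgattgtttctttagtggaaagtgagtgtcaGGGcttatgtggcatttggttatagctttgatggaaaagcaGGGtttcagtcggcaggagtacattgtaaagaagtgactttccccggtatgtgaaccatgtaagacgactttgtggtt
Epor, intron 1 of 7, chr9:21962736-21962849, minus strand, day 2: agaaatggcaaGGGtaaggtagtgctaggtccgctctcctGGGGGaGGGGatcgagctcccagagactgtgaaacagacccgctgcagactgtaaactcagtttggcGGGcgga
Bcl11a, intron 2 of 3, chr11:24095595-24095730, plus strand, day 0: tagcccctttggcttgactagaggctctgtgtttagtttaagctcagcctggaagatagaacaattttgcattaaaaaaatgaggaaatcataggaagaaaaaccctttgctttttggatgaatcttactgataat
Avil, intron 1 of 19, chr10:127001916-127001987, plus strand, day 0: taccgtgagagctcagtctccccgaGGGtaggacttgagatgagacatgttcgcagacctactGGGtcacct
Inpp4b, intron 6 of 24, chr8:81774616-81774679, plus strand, day 0: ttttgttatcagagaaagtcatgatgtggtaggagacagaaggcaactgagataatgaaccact
Sptb encodes the erythroid spectrin beta chain, Prkar2b a regulatory subunit of protein kinase A, and Epor the erythropoietin receptor. Bcl11a encodes a repressor of globin genes, Avil the actin-binding protein advillin, and Inpp4b a phosphoinositide phosphatase. G made up 31.9%, 29.8% and 36.0% of the first 3 sites and 20.6%, 29.2% and 26.6% of the last 3.

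The highest scores among sites of 41 to 120 nt that held exactly 1 call of each replicate gave the next 4 sequences, 2 that were gained and 2 that were lost, again with runs of G in capitals. Only sites wholly inside coding sequence or wholly inside an intron of a protein-coding gene could be picked.
Vps51, exon 9 of 10, chr19:6068855-6068908, minus strand, day 2: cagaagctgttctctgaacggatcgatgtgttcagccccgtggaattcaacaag
Cttn, intron 11 of 17, chr7:144450211-144450327, minus strand, day 2: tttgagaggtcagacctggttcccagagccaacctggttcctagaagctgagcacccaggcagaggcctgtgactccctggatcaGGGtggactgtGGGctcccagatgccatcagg
Plek, intron 1 of 9, chr11:17003744-17003808, minus strand, day 0: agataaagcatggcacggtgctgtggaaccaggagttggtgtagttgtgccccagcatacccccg
Smg5, intron 1 of 21, chr3:88339018-88339080, plus strand, day 0: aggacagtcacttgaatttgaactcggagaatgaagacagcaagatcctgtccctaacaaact
Vps51 encodes a subunit of a Golgi tethering complex and Cttn the actin regulator cortactin. Plek encodes pleckstrin, a protein kinase C substrate of blood cells, and Smg5 a factor of nonsense-mediated decay. Of these 4 sites, 1 lay in coding sequence, where it ended at the 3′ edge of its exon, and 3 lay inside introns. The choice allowed no other place, so that this is no result.

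The first comparison asked where in transcripts the sites lay. Introns were the class touched most often on both days. PPSs wholly inside introns made up 44.9% and 45.7% at day 0 and 45.1% and 47.4% at day 2, with overlap. A PPS touched an intron in 64.8% and 66.2% of cases in the day 0 replicates and in 62.9% and 65.1% in the day 2 replicates. The 2 days overlapped, with a change of -1.44 percentage points and a range of -3.23 to 0.346 over the 4 pairs of replicates. Coding sequence (CDS) was touched by 29.6% and 30.2% of PPSs at day 0 and by 29.0% and 27.3% at day 2. Here the days did not overlap, and the change was -1.73 points with a range of -2.92 to -0.533. PPSs wholly inside CDS made up 15.7% and 15.5% at day 0 and 16.5% and 15.2% at day 2, with overlap and a change of 0.231 points. On the minus strand alone the CDS share changed by -3.62 points and the intron share by 1.05 points, while on the plus strand, where day 0 replicate 2 had its excess of sites, the CDS share changed by -0.896 points. The 3′ UTR share, 13.9% and 12.8% at day 0 and 13.5% and 13.5% at day 2, and the 5′ UTR share, 4.74% and 4.84% at day 0 and 5.35% and 4.45% at day 2, overlapped between days. PPSs outside any gene rose from 4.00% and 3.89% to 4.60% and 4.48%, without overlap. With 2 replicates a day the smallest two-sided p of an exact permutation test is 0.333, so that no p is given for any comparison, and the gap between replicates is shown in its place.

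**Figure D1:**
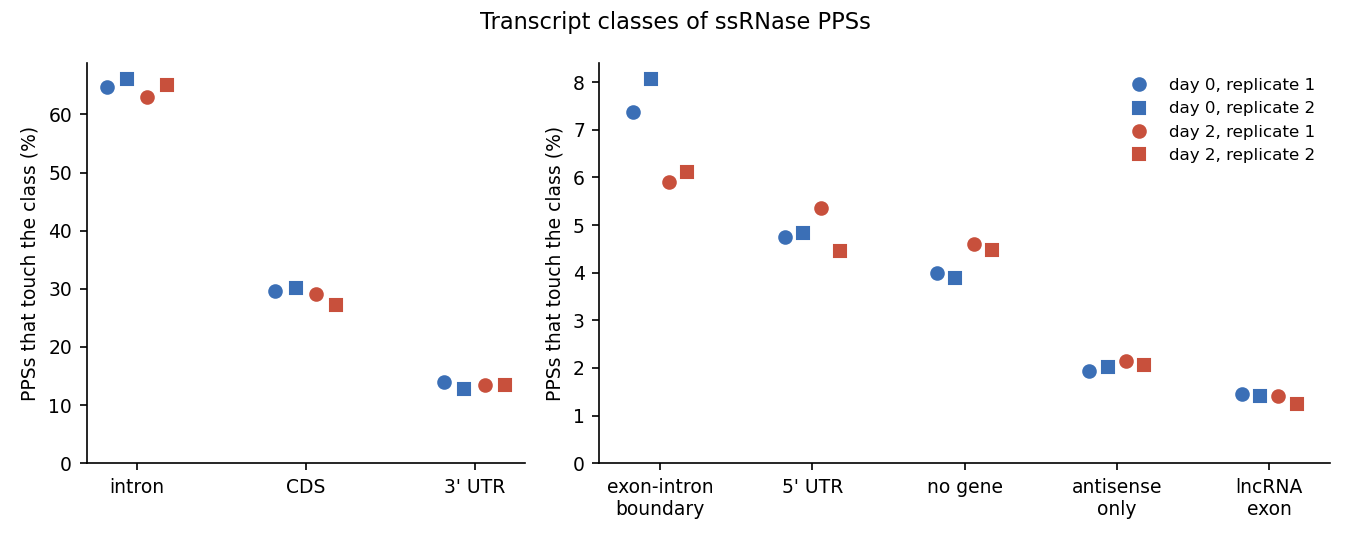
Percent of ssRNase PPSs of each call set (y axis) that touch each transcript class (x axis), with 1 point per replicate, circles for replicate 1 and squares for replicate 2, day 0 in blue and day 2 in red; a PPS can touch several classes. The boundary class falls from 7.37% and 8.06% to 5.91% and 6.12%, while introns and UTRs overlap between days.

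Sites that crossed an exon-intron boundary took a smaller share at day 2. Such a site touched an intron, touched an exon of any gene on its strand, and was not wholly exonic. It can thus also lie at an exon of another gene inside an intron, away from a splice junction. PPSs of this class made up 7.37% and 8.06% of the day 0 sets and 5.91% and 6.12% of the day 2 sets. Both day 2 values lay below both day 0 values, and the change was -1.70 points with a range of -2.15 to -1.25 over the pairs. The change was -1.75 points on the plus strand and -1.69 points on the minus strand, and -0.838 points when 25% or more of the site had to lie on each side of the boundary. Longer sites cross a boundary more often, and the day 2 sites were shorter, with median lengths of 61 and 64 nt against 71 and 70 nt at day 0. Within each length class the day 2 values were still below the day 0 values. Sites of 41 to 60 nt crossed a boundary in 4.03% and 4.69% of cases at day 0 and in 3.53% and 3.86% at day 2. Sites of 61 to 80 nt did so in 6.78% and 7.41% against 6.45% and 6.30%. The gap widened with length, to 13.3% and 13.8% at day 0 against 11.6% and 11.2% at day 2 for sites of over 120 nt. Sites called with dsRNase crossed a boundary in 5.15% and 5.47% of cases at day 0 and in 5.13% and 5.31% at day 2, where the days overlapped. Of these dsRNase PPSs, 41.1% and 42.4% at day 0 and 48.6% and 53.3% at day 2 also held an ssRNase call.

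**Figure D2:**
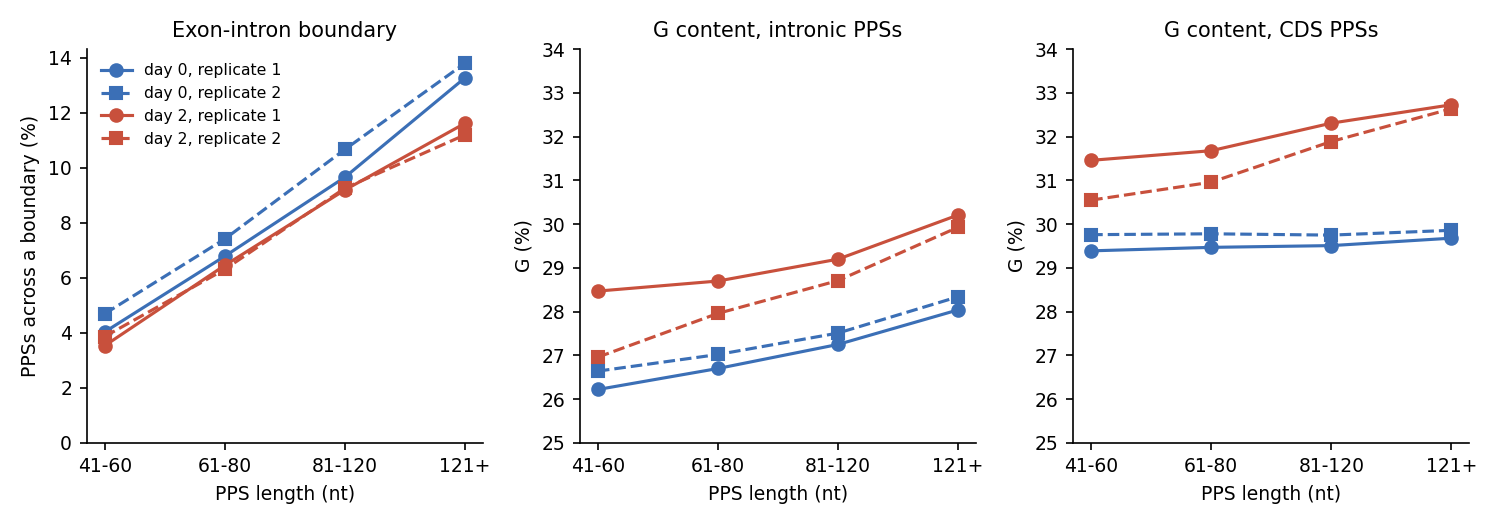
Share of ssRNase PPSs that cross an exon-intron boundary (left, percent) and G content of PPSs wholly inside introns (middle, percent) or CDS (right, percent) by PPS length in nt, with 1 line per replicate, blue for day 0 and red for day 2; the G axes start above 0. In each length class the day 2 lines lie below the day 0 lines for boundaries and above them for G content.

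Sites inside introns followed the same direction near splice acceptors. Of the intronic sites, 3.69% and 4.10% at day 0 and 3.42% and 3.33% at day 2 ended within 100 nt of the 3′ end of the intron, without overlap. With dsRNase the values were 2.42% and 2.56% at day 0 and 2.73% and 2.84% at day 2. First introns, which hold many regulatory elements, took 30.7% and 30.4% of intronic sites at day 0 and 32.2% and 31.8% at day 2, again without overlap. In mRNAs, the share of positions inside a PPS rose without overlap upstream of start codons only in the outer windows of the 5′ UTR. Between 400 and 300 nt before the start codon it was 5.26% and 5.03% at day 0 and 5.91% and 6.78% at day 2, over 1211 transcripts. Between 300 and 200 nt before it, the share was 6.57% and 6.30% against 7.18% and 7.78%, over 2070 transcripts. The other windows within 400 nt of start and stop codons, and those within 500 nt of intron ends, overlapped between days.

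The base makeup of the sites moved toward G. Sites wholly inside introns held 27.1% and 27.4% G at day 0 and 29.0% and 28.1% at day 2, a change of 1.32 points. Sites wholly inside CDS held 29.5% and 29.8% G at day 0 and 31.9% and 31.2% at day 2, a change of 1.92 points. A and T were both lower without overlap, and C changed by 0.190 points in CDS and by -0.136 points in introns. Runs of 3 or more G took 38.1 and 38.5 of each 1000 nt of intronic sites at day 0 and 44.6 and 41.5 at day 2. In CDS sites these runs took 40.8 and 40.8 of each 1000 nt at day 0 and 49.7 and 47.3 at day 2. The days did not overlap in G content or in the length of these runs. The percent of sites with such a run was 53.6% and 54.2% at day 0 and 55.5% and 53.7% at day 2 in introns, where the days overlapped, and 55.6% and 56.2% against 57.9% and 57.3% in CDS, where they did not. The same direction of G content was seen in dsRNase sites, where intronic G was 25.5% and 25.9% at day 0 and 27.5% and 28.4% at day 2. Many of these PPSs also held an ssRNase call and are counted in both, so that this is no separate reading.

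Words of 5 bases showed which contexts moved. Of 1024 words in intronic sites, 9 (0.879%) were higher and 63 (6.15%) lower at day 2, with no overlap between days and a ratio of at least 1.2. In CDS sites, 69 words (6.74%) were higher and 176 (17.2%) lower. Words made only of A and T fell together: 27 of 32 were called lower and 0 higher in introns, with a median ratio of 0.795, and 32 of 32 were called lower in CDS, with a median ratio of 0.670. The word with the deepest fall in introns was ATATA, at 0.824 and 0.781 per 1000 nt at day 0 and 0.509 and 0.632 at day 2. In CDS it was CATAA, at 0.357 and 0.338 against 0.173 and 0.221. Words that hold the dinucleotide CG, which is rare in mammalian genomes, made up 244 of the 1024 words. They were 55 of the 69 words called higher in CDS and all 9 called higher in introns, while 3 of them were called lower in CDS and 5 in introns. Their median ratio was 1.12 in CDS and 1.02 in introns. GCGGG, for example, was at 0.682 and 0.657 per 1000 nt of CDS sites at day 0 and at 0.995 and 0.882 at day 2. Without day 2 replicate 1 the numbers of words called lower in introns and higher in CDS were 21 and 32, and without day 2 replicate 2 they were 112 and 109. The number called higher in introns was 30 without day 2 replicate 2 and 17 without day 0 replicate 2. Overlapping words share bases and are not separate findings.

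The next comparison asked which mRNAs carried more or less protected sequence. Exonic coverage, the percent of the exonic nt of a gene that lay in a PPS, averaged 4.07% and 3.65% over 8831 protein-coding genes in the day 0 replicates and 3.58% and 4.60% in the day 2 replicates. A gene was called when its nearest replicates of the 2 days lay at least 5 percentage points apart. This called 208 genes higher (2.36%) and 231 genes lower (2.62%) at day 2. Without the 5 point gap, 2192 genes (24.8%) were higher and 1578 (17.9%) lower with no overlap between days. The median change over all genes was 0.361 points.

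**Figure D3:**
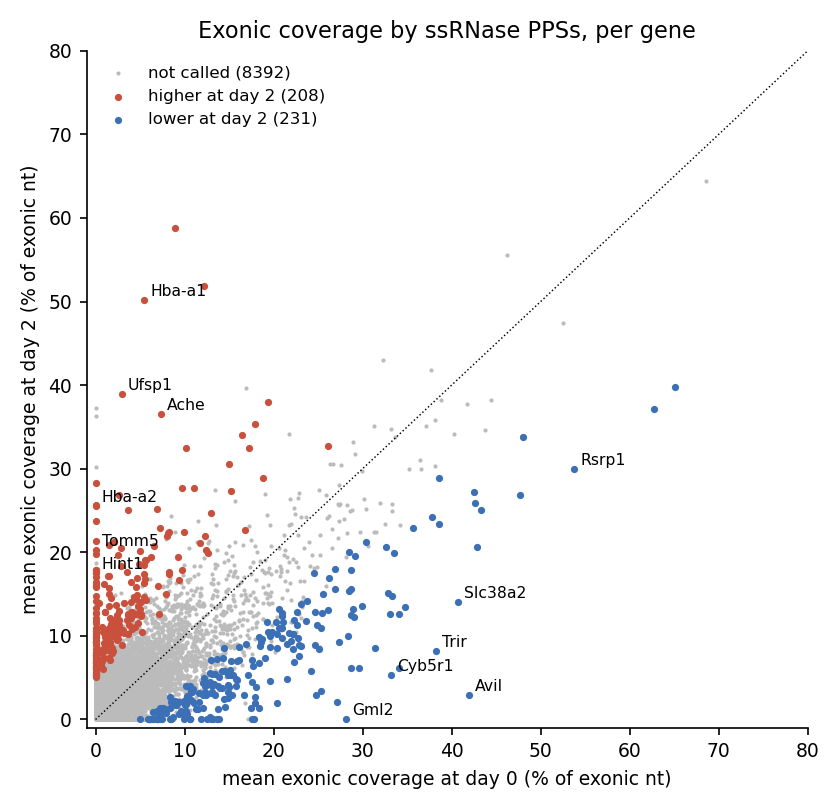
Mean exonic coverage by ssRNase PPSs per gene, in percent of exonic nt, at day 0 (x axis) and day 2 (y axis), with genes called higher in red (208), genes called lower in blue (231) and the rest in grey; the dotted line marks equal coverage. Genes of alpha globin and Ache lie far above the line, and Avil and Gml2 lie near 0 at day 2.

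Alpha globin gave the widest gap upward. Hba-a1, on chromosome 11, had a coverage of 0% and 10.84% in the day 0 replicates and 52.5% and 47.9% in the day 2 replicates. Hba-a2, its near-identical neighbour, was at 0% in both day 0 replicates and at 27.9% and 23.2% at day 2, and reads from the 2 copies may be split between them. In both genes each day 2 value lay above both day 0 values. Ache, which encodes acetylcholinesterase, an enzyme also carried on the red cell surface, was at 5.54% and 9.15% at day 0 and at 33.7% and 39.3% at day 2. Ufsp1, the next gene downstream on the same strand and a protease for the modifier UFM1, went from 0% and 5.88% to 51.6% and 26.3%. Tomm5, a subunit of the mitochondrial import pore, Mtln, a mitochondrial micropeptide, and Hint1, a nucleotide hydrolase, were at 0% in both day 0 replicates and at 20.3%, 17.0% and 17.6% in each day 2 replicate. The equal values come from PPSs merged over both replicates. Apol11b, a member of the apolipoprotein L family, and Hist1h1c, a linker histone, were also among the 10 genes with the widest gaps upward, at 17.2% to 34.2% and 23.0% to 27.2% at day 2.

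The gene with the widest gap downward was Avil, at 42.5% and 41.4% at day 0 and at 0% and 5.89% at day 2. Gml2, of the LY6 family of membrane-anchored proteins, went from 28.1% in both replicates to 0% in both. Cyb5r1, a cytochrome b5 reductase, was at 32.5% and 33.8% at day 0 and at 2.32% and 8.34% at day 2. In all 3 genes both day 2 values lay below both day 0 values by wide gaps. Trir, which encodes a small RNase, fell from 45.2% and 31.3% to 6.54% and 9.76%. Mdn1, a giant ATPase of ribosome assembly with 21836 exonic nt, fell from 23.5% and 27.2% to 1.33% and 5.56%, so that the loss ran over a long mRNA. Tbc1d31, Mst1 and Ccdc88b were between 21.2% and 33.9% at day 0 and between 2.15% and 11.9% at day 2. Slc38a2, an amino acid transporter, and Rsrp1, an arginine- and serine-rich protein, also counted as lower, at 45.6% and 35.9% against 13.4% and 14.7%, and at 56.4% and 51.2% against 29.7% and 30.3%.

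Part of this coverage came from merged calls of both RNases. When only PPSs without a dsRNase call were kept, 82 of the 208 genes called higher and 59 of the 231 called lower were called again, and 194 and 195 kept the sign of their change. Avil was then at 25.5% and 24.5% at day 0 and at 0% and 5.89% at day 2, and Trir kept the same values. Slc38a2 was at 11.2%, 10.2%, 10.1% and 8.995% and Rsrp1 at 16%, 19.0%, 17.5% and 15.7% in the 4 sets, with no fall. Gml2 was at 5.24% in both day 0 replicates and at 0% in both day 2 replicates, and Cyb5r1 at 12.2% and 12.3% against 2.32% and 8.34%. Hba-a1 was at 0% in both day 0 replicates and at 7.39% in both day 2 replicates. Hba-a2 was at 0% in both day 0 replicates and at 2.999% and 0% at day 2, which was no call, and Hint1 was at 0% in all 4 sets. Ache was at 3.96% and 7.57% against 12.3% and 19.6%, and Tomm5 at 0% in both against 4.95% in both. Hist1h1c was at 0% and 7.37% against 11.1% and 10.6%, and Tbc1d31 at 12.25% and 14.8% against 2.61% and 9.87%. Ache, Tomm5, Hist1h1c, Tbc1d31 and Cyb5r1 were then not called, while Ufsp1, Apol11b, Mtln, Mst1, Mdn1 and Ccdc88b kept their calls. Strand also mattered, since 137 of the genes called higher lay on the minus strand and 165 of the genes called lower on the plus strand, where day 0 replicate 2 had 66.9% of its sites. Leaving out 1 call set lets more genes pass the rule: without day 2 replicate 1, day 0 replicate 1 or day 2 replicate 2, 657, 406 and 363 genes were higher. Without day 0 replicate 2, day 0 replicate 1 or day 2 replicate 2, 514, 433 and 417 were lower.

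Gene lists of the erythroid program were described next, beside the median change of 0.361 points over all genes. Over all genes 2.36% were called higher and 2.62% lower, which also stands beside the counts of each list. Of 4 globin genes with sites, 2 were called higher and 0 lower, with a median change of 19.2 points. The beta globin gene Hbb-bt was at 0% and 4.27% at day 0 and at 23.8% and 6.12% at day 2, and was not called. Hbb-bs, also of beta globin, was at 6.51% and 3.91% against 23.6% and 5.08%, with overlap and no call. Of 10 heme synthesis genes, 2 were called higher and 0 lower, with a median of 3.45 points. Ppox, the enzyme that oxidizes protoporphyrinogen, was at 14.7% and 18.2% at day 0 and at 32.4% and 35.6% at day 2. Alad, which makes porphobilinogen, was at 4.65% and 0% against 15.9% and 11.5%. In both genes the days were apart by more than the replicates. Of 16 genes of iron uptake and storage, 3 were called higher and 0 lower, with a median of 0.876 points. Slc25a37, the mitochondrial iron importer mitoferrin, went from 14.1% and 15.9% to 29.0% and 32.2%, and Abcb10, its partner in the inner membrane, from 2.02% and 1.23% to 8.29% and 10.2%. Steap3, the endosomal iron reductase, was the third of these genes, at 0.805% and 0.840% at day 0 and 5.98% and 6.04% at day 2. Without PPSs that held a dsRNase call, the calls left in these 3 lists were Hba-a1, Alad and Steap3. Slc25a37 was then at 9.05% and 9.23% at day 0 and at 10.55% and 10.56% at day 2, and Ppox at 10.7% and 11.5% against 16.2% and 17.2%.

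Exonic calls went both ways among genes of the red cell membrane and among regulators of maturation. Of 21 membrane genes, 2 were called higher and 1 lower, with a median change of 2.79 points. Add1, an adducin of the spectrin skeleton, rose from 1.78% and 3.42% to 10.97% and 12.8%, and Icam4, a blood group adhesion protein, from 5.05% and 0% to 22.3% and 16.9%. Rhag, the Rh-associated glycoprotein, was called lower, from 10.7% and 10.3% to 3.89% in both. Of 17 genes of maturation and survival, 5 were called higher and 1 lower, with a median of 3.22 points. Epor rose from 23.3% and 15.4% to 40.9% and 35.1%, and Trim10, a tripartite motif protein of erythroid cells, from 1.96% and 0% to 21.7% and 10.82%. The growth arrest genes split: Gadd45b and Gadd45g were at 0% in both day 0 replicates and between 6.04% and 24.5% at day 2, while Gadd45a fell from 24.0% and 16.6% to 7.82% and 9.35%. The survival kinase gene Pim1 was at 1.99% and 6.16% against 13.3% and 11.5%. Without PPSs that held a dsRNase call, the calls left in these 2 lists were Add1, Pim1 and Trim10, which were higher, and Gadd45a, which was lower. Icam4 was then at 5.05% and 0% at day 0 and at 3.69% and 3.96% at day 2, with overlap, Rhag at 4.87% and 4.40% against 0% in both, and Epor at 11.3% and 8.25% against 20.1% and 14.7%.

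The 3 exonic calls among transcription factors of the lineage were falls. Of 18 genes, 0 were called higher and 3 lower, with a median change of 0.577 points. Without the 5 point gap, 6 were higher and 4 lower with no overlap between days, so that the list as a whole did not fall. Bcl11a fell from 24.0% and 22.2% to 6.35% and 11.1%, Lyl1, a helix-loop-helix factor, from 26.9% and 30.4% to 16.8% and 18.9%, and Nfe2, a subunit of the globin enhancer factor NF-E2, from 11.6% and 8.40% to 1.87% and 1.67%. Kept to PPSs without a dsRNase call, Nfe2 was the one call left. The change of Lyl1 was then 2.31 points in the other direction, and Bcl11a was at 8.60% and 5.59% against 2.86% and 7.77%, with overlap. Of 9 progenitor and leukaemia regulators with sites, 0 were called in either direction, with a median of -0.689 points. Myb, which keeps progenitors cycling, was at 9.29% and 6.58% at day 0 and at 1.01% and 1.78% at day 2, a separation of under 5 points.

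Genes of general RNA and protein metabolism were described for comparison. Of 60 cytosolic ribosomal protein genes, 0 were called higher and 6 lower, with a median of -1.84 points, among them Rpl26, at 9.14% and 13.5% against 0% and 2.56%. Of 29 genes of SR proteins and hnRNPs, the splicing regulators, 2 were higher and 6 lower, with a median of -1.69 points. Hnrnpa1 was at 26.3% and 31.8% against 10.0% and 14.4%, and Hnrnpa0 moved the opposite way, from 5.83% and 4.97% to 14.9% and 19.9%. Without PPSs that held a dsRNase call, Hnrnpa1 was at 9.64% and 10.5% against 8.02% and 10.91%, with overlap, Hnrnpa0 at 2.76% and 1.90% against 2.91% and 5.53%, and the calls of this list were Hnrnpa3, higher, and Srsf2, lower. Of 17 nuclear and snoRNA host RNAs, which are noncoding and stand outside the 8831 genes, 1 was higher and 4 lower. Gas5, a host of snoRNAs, was at 80.5% and 77.4% at day 0 and at 58.3% and 57.5% at day 2. Translation factors (53 genes) had 1 call higher and 1 lower, helicases (45) 0 and 2, proteasome subunits (32) 0 and 2, and respiratory chain subunits (66) 2 and 0. Genes of DNA replication (22) had no call, cell cycle regulators (19) had 1 higher and 0 lower, and factors of mRNA stability (22) had 0 higher and 1 lower. Ndufa8 and Cox6b1, subunits of respiratory complexes I and IV, were the respiratory genes called, at 5.34% and 0% against 33.7% and 20.1%, and at 0% in both against 22.3% and 13.0%. Without PPSs that held a dsRNase call the direction of 2 lists turned, with 2 higher and 0 lower both for helicases (Ddx46 and Dhx16) and for proteasome subunits (Psmb5 and Psmd3). The ribosomal protein genes then had 1 higher and 6 lower, the noncoding RNAs 1 and 1, translation factors 0 and 0, DNA replication 0 and 1, cell cycle regulators 1 and 0, mRNA stability factors 1 and 0, and respiratory chain subunits 4 and 1.

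Replication-dependent histone genes rested on a single call set. Of 37 genes, 4 were called higher and 1 lower, with median coverages of 0% and 0% at day 0 and 20.6% and 0% in day 2 replicates 1 and 2. Hist2h2aa2, a gene of histone H2A, was at 0% in both day 0 sets and in day 2 replicate 2, and at 74.6% in day 2 replicate 1. Without day 2 replicate 2, 28 of the 37 genes were higher, and without day 2 replicate 1, 5 were. The coverage of Hist2h2aa2 was 0% in all 4 sets once PPSs with a dsRNase call were left out, and the many near-identical histone genes can share reads.

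Intronic sites were then counted per gene as PPSs wholly inside its introns per 10000 PPSs of the call set. A gene was called when the days did not overlap and their means differed at least 2-fold. Of 2368 protein-coding genes with at least 10 intronic sites over the 4 sets, 511 (21.6%) were higher and 304 (12.8%) lower at day 2. Most of these genes had few sites, and at such numbers counting error alone can pass this rule. Of the genes called higher, 437 had under 10 sites at day 0, and of those called lower, 214 had under 10 at day 2, so that they passed the minimum with the sites of the day on which they were high. Among the 491 genes with at least 50 sites, 69 (14.1%) were higher and 62 (12.6%) lower. Over 50% of the intronic sites lay also in another gene in 32 of the genes called higher and in 6 of those called lower.

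**Figure D4:**
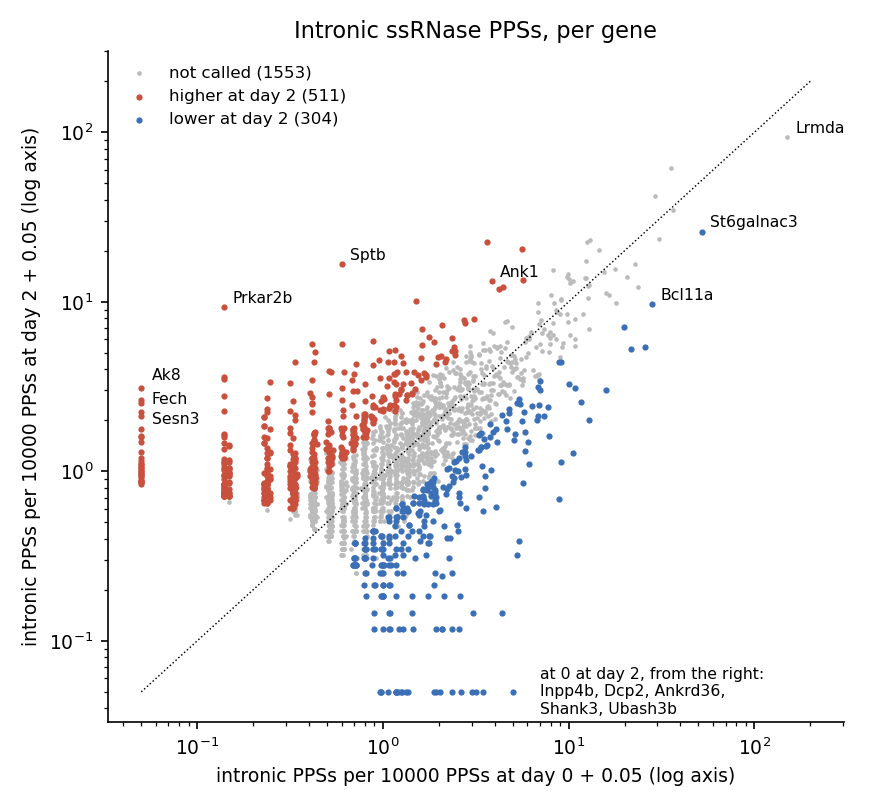
Intronic ssRNase PPSs per gene per 10000 PPSs, plus 0.05, at day 0 (x axis, log) and day 2 (y axis, log), as means of 2 replicates, with genes called higher in red (511), genes called lower in blue (304) and the rest in grey; columns and rows of points at the edges are genes with few or no sites on 1 day. Sptb and Prkar2b lie far above the line of equality, and Inpp4b, Dcp2, Ankrd36, Shank3 and Ubash3b have no site at day 2.

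The largest rises were in genes that had almost no intronic site before induction. Prkar2b, at chr12:31958476-32061296 on the minus strand, had 1 and 0 intronic sites in the day 0 replicates and 46 and 72 in the day 2 replicates. Scaled to the size of the call sets this was a 100.3-fold rise, with an exact binomial 95% interval of 17.7 to 3995 that covers counting error only. Its exonic coverage was 5.04% and 3.15% at day 0 and 6.46% and 5.29% at day 2, so that the sites gained were intronic. Sptb, at chr12:76580488-76710547 on the minus strand, had 4 and 2 intronic sites against 97 and 107, a 28.9-fold rise with an interval of 13.1 to 79.7. Both genes were high in both day 2 replicates and near 0 in both day 0 replicates. Ak8, an adenylate kinase, had 0 sites in both day 0 replicates and 12 and 28 at day 2. Fech, or ferrochelatase, which inserts iron into protoporphyrin as the last step of heme synthesis, had 0 and 0 against 12 and 21. Sesn3, a stress-induced sestrin, had 0 and 0 against 11 and 21. Against a floor of 3 sites over the day 0 group, these 3 genes were at least 11.3-fold, 9.35-fold and 9.07-fold higher. No floor was used for Prkar2b, with 1 site over the day 0 group, or for Sptb, so that their folds cannot be ranked against these bounds.

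The largest falls ended at 0 sites. Inpp4b, at chr8:81342556-82127914 on the plus strand, had 23 and 30 intronic sites at day 0 and 0 in both day 2 replicates, at least 20.8-fold lower with the floor of 3 sites taken over the day 2 group. Dcp2, the catalytic subunit of the mRNA decapping enzyme, had 14 and 22 sites at day 0 and none at day 2, at least 14.1-fold lower. Ankrd36, an ankyrin repeat gene, had 15 and 18 sites at day 0, Shank3, a synaptic scaffold gene, 17 and 15, and Ubash3b, a phosphatase that restrains kinase signalling, 17 and 11. These 3 genes also had 0 sites at day 2 and were at least 12.9-fold, 12.6-fold and 10.98-fold lower. All 10 genes kept this pattern when PPSs with a dsRNase call were left out: Prkar2b then had 1, 0, 36 and 53 sites, Sptb 4, 2, 76 and 90, and Inpp4b 20, 26, 0 and 0. The PPSs kept are a part of the same calls, in which a gene at 0 sites stays at 0, so that this is no separate support.

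Members of the membrane, heme and iron lists were called higher in introns, and 3 progenitor regulators were called lower. Of 23 membrane and skeleton genes 13 had enough intronic sites, and 9 were called higher and 0 lower, beside 21.6% and 12.8% over all genes. Of the 9, 5 had under 10 sites at day 0 and so passed the minimum with their day 2 sites. Summed over all members of the list, passed or not, the sites made up 17.3 and 21.6 per 10000 PPSs at day 0 and 67.7 and 59.4 at day 2. Besides Sptb, the calls included Ank1, the ankyrin that ties spectrin to the membrane, with 13 and 27 sites at day 0 and 72 and 93 at day 2. Gypc, a glycophorin, had 3 and 2 against 24 and 23, and Tmod1, which caps the short actin filaments of the skeleton, 0 and 2 against 16 and 26. Add1 and the blood group protease Kel were higher too, with 4 and 9 against 20 and 35, and 6 and 6 against 17 and 14. In each of these genes both day 2 counts exceeded both day 0 counts. Of 10 heme synthesis genes only 4 had enough sites. The 3 called higher were Fech, Alad with 3 and 0 sites against 14 and 13, and Alas2, the erythroid enzyme that starts the pathway, with 2 and 1 against 5 and 8. All 3 reached the minimum only with day 2 sites, so that their number is no result. Over all 10 genes the sites made up 1.43 and 0.784 per 10000 PPSs at day 0 and 6.93 and 6.63 at day 2. Of 7 iron genes with enough sites, 3 were higher and 0 lower, and these too passed with day 2 sites, including Slc25a37 with 3 and 1 against 18 and 25 and Abcb10 with 1 and 0 against 20 and 24. The iron list summed to 8.39 and 7.84 per 10000 PPSs at day 0 and 17.3 and 16.1 at day 2. In each of the 3 lists the summed values did not overlap between days. The sums include the genes called higher, which held much of the change, so that they are no separate result.

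Of 7 progenitor and leukaemia regulators with enough sites, 0 were called higher and 3 lower, 2 of which had under 10 sites at day 2. The whole list, with the genes called lower included, summed to 63.7 and 56.3 per 10000 PPSs at day 0 and 49.7 and 44.4 at day 2, without overlap. Spi1, which encodes the factor PU.1 and was first found at a virus insertion site of erythroleukemias, had 8 and 12 intronic sites at day 0 and 0 and 1 at day 2. Myb had 14 and 8 against 0 and 1, and Etv6, an ETS family repressor, 32 and 35 against 12 and 18. Runx1, the core hematopoietic factor with the most sites of this list, had 228 and 162 at day 0 and 192 and 242 at day 2, which was no call. Of 12 erythroid transcription factors, 4 were higher and 2 lower, beside 21.6% and 12.8% over all genes. The list sums of 80.7 and 90.8 against 82.9 and 69.5 per 10000 overlapped. Of the 4 higher, 3 had under 10 sites at day 0, and of the 2 lower, 1 had under 10 at day 2. These passed the minimum with the sites of the day on which they were high. The lower ones were Bcl11a, with 137 and 162 sites against 50 and 72, and Lmo2, a bridging factor, with 10 and 13 against 3 and 1. Those called higher were Klf3, Sox6, Foxo3, with 16 and 9 against 30 and 47, and Gata1, the master regulator of the lineage, with 1 and 4 against 5 and 10. Of 4 genes of maturation, 3 were higher and 1 lower, and 2 of the 3 had under 10 sites at day 0. The lower one was Car1, a carbonic anhydrase, with 48 and 14 sites at day 0 and 2 and 9 at day 2.

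The genes with the most intronic sites were mostly outside these lists. Lrmda, a leucine-rich repeat gene with 1033660 nt of intron, led with 770 and 827 sites at day 0 and 502 and 672 at day 2. This was 3.22% of all intronic sites at day 0 and 1.95% at day 2, under the 2-fold limit. St6galnac3, a sialyltransferase gene, was called lower, with 351 and 212 sites against 126 and 204. Asap1, an Arf GTPase-activating protein, was not called at 189 and 124 against 223 and 308, and neither was Cbfa2t3, a corepressor of the erythroid factor list, at 174 and 155 against 136 and 153. The cell cycle list held 1 call each way among 5 genes: Cdk6, a kinase of early G1, fell from 48 and 66 sites to 15 and 24, and Aurka, a mitotic kinase, had 2 and 1 against 4 and 5. Of the other lists, translation factors had 3 higher and 4 lower of 18, ribosomal protein genes 0 and 2 of 12, helicases 0 and 5 of 13, proteasome subunits 0 and 2 of 7, and SR proteins and hnRNPs 1 and 0 of 20. DNA replication had 2 higher and 0 lower of 4, respiratory chain subunits 2 and 0 of 4, and mRNA stability factors 1 and 1 of 12. Every call in these other lists, and that of Aurka, passed the minimum with sites of the day on which it was high. Their numbers are no result beside the 21.6% higher and 12.8% lower over all genes.

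Exons and introns of a gene tended to carry the same call. Of the 208 genes with higher exonic coverage, 58 had enough intronic sites, and 35 of these (60.3%) were called higher in introns and 2 lower. The 35 genes were 16.8% of all genes called higher in exons and 6.85% of those called higher in introns. Of the 231 genes with lower exonic coverage, 103 had enough intronic sites, and 44 (42.7%) were called lower in introns and 1 higher. These were 19.1% of the exonic and 14.5% of the intronic calls. Over all genes tested in introns, 21.6% were called higher and 12.8% lower. Both measures come from the same call sets, and many genes had enough intronic sites only through the day on which they were high, so that the count is a description.

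The dsRNase sites of the same cells, PPSs with no ssRNase call, gave a separate reading of the genes. In introns, 541 genes had at least 5 such sites, of which 23.8% were higher and 15.5% lower at day 2 with no overlap. Among the genes called higher by ssRNase sites, 32 of 77 (41.6%) were higher with dsRNase and 3 lower. Among those called lower, 26 of 68 (38.2%) were lower with dsRNase and 10 higher. These shares rest on counts scaled to the size of each call set. Bcl11a had 9 and 8 intronic dsRNase sites at day 0 and 6 and 3 at day 2, which overlapped between days once scaled. Sptb had 0 and 1 against 7 and 2, without overlap. In exons the 2 RNases did not move together beyond the background. Of 7115 genes with dsRNase coverage, 16.8% were higher without overlap after scaling to the mean of each call set. Without that scaling, 35.2% were lower without overlap, a share that also carries the smaller size of the day 2 dsRNase sets. By the same 2 measures, of 169 genes called higher by ssRNase coverage 17.8% were higher with dsRNase, and of 202 called lower 35.6% were lower. Hba-a1 had a dsRNase coverage of 15.2% and 8.99% at day 0 and 0% at day 2, opposite to its ssRNase sites, and PPSs with calls of both RNases are not counted in it. Replicates of the 2 RNases come from the same cells, and the dsRNase sets shrank from 16403 and 18799 sites at day 0 to 15659 and 6930 at day 2.

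Single sites showed the same turnover. In both replicates of a day, ssRNase called 22056 PPSs at day 0 and 26673 at day 2. Of the day 2 sites, 8766 (32.9%) overlapped no PPS of either RNase at day 0 and were gained. Of the day 0 sites, 4850 (22.0%) overlapped none at day 2 and were lost. Sites called in both replicates of both days numbered 7821 at day 0 (35.5%) and 7987 at day 2 (29.9%). Of the gained sites, 45.4% lay on the plus strand, and of the lost sites 67.6%. By strand, 29.6% of plus and 36.2% of minus strand sites were gained, and 24.9% and 17.7% were lost, beside the plus strand excess of day 0 replicate 2. More sites were gained than lost on each strand.

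Gained, lost and kept sites differed in makeup. Gained sites held 28.8% G inside introns and 32.1% inside CDS, against 26.6% and 28.8% in lost sites. Kept sites lay at 28.8% in introns as measured at day 0, like the gained ones. They were also longer, with a median of 102 nt at day 0 and 88 nt at day 2 against 68 nt for gained and 76 nt for lost sites. An exon-intron boundary was crossed by 12.3% and 10.6% of kept sites, 7.71% of lost sites and 5.32% of gained sites. Kept sites had a dsRNase call in 37.7% and 35.6% of cases, against 16.7% for gained and 23.4% for lost sites, and repeats made up 10.3% of their bases against 5.97% and 6.01%. No length matching was done for these values.

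Turnover was spread over many genes and often happened within a gene that kept other sites. Gained sites lay in 3465 protein-coding genes and lost sites in 2153, and 1113 genes had both, which was 32.1% of the first and 51.7% of the second. Of the gained sites inside genes, 57.1% lay in a gene that also held a kept site, and of the lost sites 66.1%. Apart from the predicted gene Gm20388 with 103, most gained sites lay in Sptb with 58, Slc25a21, a mitochondrial carrier gene, with 47, Asap1 with 45 and Zfpm1, which encodes the GATA1 partner FOG1, with 39. Ank1 gained 30. Most lost sites lay in Lrmda with 85, followed by Bcl11a with 40, St6galnac3 with 36 and Nfia, a nuclear factor gene, with 35. Lrmda was on both lists, with 35 sites gained. The sequences printed above for Sptb, Prkar2b, Bcl11a and Inpp4b are 1 each of 55, 24, 38 and 7 such sites wholly inside CDS or introns, and those of Epor and Avil 1 each of 1 and 6. Hba-a1 had 0 such gained sites.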

How the data were processed

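The authors trimmed reads with cutadapt 1.2.1, aligned them to mm10 with TopHat2 2.0.10 and called PPSs with a modified CSAR, a Poisson test of footprinting over structure-only coverage, per the labels and the methods. They deposited 1 merged PPS list per day with coordinates, call names and a score. The deposited score was used to rank sites within a call set and to pick the printed sequences among sites called in both replicates, and its steps differ between call sets of day 2. Read depth behind a site is not in the lists. Each PPS was assigned here to the call sets in its name and set against GENCODE M21 annotation of GRCm38, on the same strand, at an overlap of 1 nt or more. Coverage was compared for genes that code for protein and have 500 exonic nt or more. Bases came from the RefSeq copy of GRCm38.p6. Python 3.11.15, numpy 2.4.6, pandas 2.3.3 and scipy 1.17.1 were used, and the calling rules were tested on simulated data, where they recovered the planted changes, and where the rule for intronic sites also called genes with no planted change.

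No p-values were computed. Calls rest on replicates that do not overlap, with a gap of 5 points for exonic coverage, a ratio of 2 for intronic sites and a ratio of 1.2 for words. Named genes were the 10 widest gaps in each direction without shared exons or provisional symbols, up to 3 members of each list, and the 5 largest intronic ratios each way, and other list members were named after their values were seen. Some genes that these rules name are not reported here. The members and lists were chosen with earlier results of these data known, and the alternatives for intronic sites, words and length classes after the data were seen. Replicate numbers come from the labels, and nothing ties replicates of different days to 1 culture, so that the spread may be partly technical. RNA abundance data were not used here.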

Additional observations from a re-analysis of the deposited data

How the results depend on the processing

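No paired analysis was possible because the results come from no test. The boundary share change of -1.70 points kept its direction under every alternative run. It was -2.24 with all lengths, -1.33 with ssRNase calls only, -1.17 with single-call PPSs, -2.56 with sites of both replicates, -0.838 when 25% or more of the site had to lie on each side, and -0.664, -0.719, -0.936 and -2.12 in the 4 length classes. A boundary is a point with no length that could cover part of a site, so the listed alternative of class coverage was replaced by that split. The CDS share change was -2.73 with all lengths and -3.62 on the minus strand. The intron share change was 1.05 on the minus strand and -2.75 for sites of both replicates. The 3′ UTR share change was 1.12 with ssRNase calls only, 0.760 with single-call PPSs and 0.803 for sites of both replicates. Leaving out 1 call set gave -2.62 to -0.838 for CDS, -2.54 to -0.350 for introns, -0.452 to 0.647 for 3′ UTRs, -0.341 to 0.559 for 5′ UTRs and -2.05 to -1.35 for boundaries. The G change in CDS was 1.22 with ssRNase calls only, 1.09 with single-call PPSs and 2.29 with equal numbers of top-scoring sites, and 1.60 to 2.24 with 1 call set left out, against 0.880 to 1.76 in introns. The median length change of -8.0 nt was -12.5 with all lengths, -5.0 with single-call PPSs and -9.5 to -6.5 with 1 call set left out.

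Genes called higher and lower in exons numbered 2192 and 1578 with any gap, 52 and 67 with a gap of 10 points, 71 and 165 on the plus strand, and 137 and 66 on the minus strand. With ssRNase calls only, 94 were lower, and with 1 call set left out 308 to 657 were higher and 305 to 514 lower. In introns, 297 were higher and 159 lower at a ratio of 3, 243 and 198 with single-call PPSs, 236 and 185 on the plus strand, and 267 and 127 on the minus strand. With equal numbers of top-scoring sites 314 were higher, and at any ratio 553 were lower. With 1 call set left out the counts were 558 to 685 and 324 to 421. Words called higher in introns numbered 16 with single-call PPSs, 25 with equal numbers, 24 and 20 on the plus and minus strand, and 6 to 30 with 1 call set left out. Words called lower in introns numbered 37 with single-call PPSs and 21 to 112 with 1 call set left out. In CDS, words called higher numbered 44 with all lengths, 23 with ssRNase calls only, 37 with single-call PPSs, 115 with equal numbers and 32 to 109 with 1 call set left out. Words called lower in CDS numbered 111 with ssRNase calls only, 66 with single-call PPSs and 127 to 233 with 1 call set left out. Gained sites numbered 3977 and 4789 on the plus and minus strand, lost sites 1572 on the minus strand, and kept sites 3431 with ssRNase calls only and 4268 and 3553 by strand. A count from 1 strand covers only the genes of that strand.

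Of 576 alternative values of 72 named genes, 442 moved by less than the spread of replicates, and 15 changed sign. Of these, 13 did so with ssRNase calls only, and Spi1 and Cdc20, which were not called, without day 0 replicate 1. With ssRNase calls only the coverage change was -1.85 points for Hbb-bt, 2.51 for Pcbp1, 2.31 for Lyl1, -7.12 for Zfpm1, 4.73 for Fen1, -0.711 for Ccnb1, 0.514 for Rpl12, 3.99 for Hnrnph1, 3.89 for Ddx18, 2.07 for Ddx17, 1.499 for Psma6, -13.8 for Rpph1 and 10.7 for Mir17hg. The median change of 11 gene lists changed sign under at least 1 alternative. The causes were not tested.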
